A study of Mus musculus with 4 samples.

Results

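The comparison is between 2 normal precursor lines of the mouse nervous system, OPC (oligodendrocyte precursor cells) and NSC (neural stem cells), over the 1023 mouse miRNAs of a 1-colour Agilent array. It uses 2 of the 4 arrays of the study, 1 for each line, chosen by the cell line given in the labels. The other arrays hold NSCL61 and OPCL61, glioma-initiating cells made from these lines, and were used only to choose the probes for scaling. Both lines were, per the labels, grown by 1 published protocol, and 100 ng of total RNA was labelled with Cy3 for each array. The labels give no strain, age, passage or number of cultures, so each line stands for 1 culture. No p-value can be had from 1 array per line. The errors given are over the replicate spots of 1 array, 10 to 40 spots for each probe (median 20), and measure technical spread only. In bulk RNA, fewer cells that hold a miRNA and less of it in every cell cannot be told apart.

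As background, a miRNA is a short RNA that guides Argonaute proteins to messenger RNAs that pair with its seed, bases 2 to 8 from the 5′ end, and lowers their translation and stability. Most miRNAs come from a hairpin whose arms give a 5p and a 3p product, and members of a family share a seed. Neural stem cells give rise to neurons, astrocytes and oligodendrocytes. Oligodendrocyte precursors divide under platelet-derived growth factor and mature into the cells that make myelin. In mouse, miR-219 and miR-338 rise as precursors mature, and miR-9 is abundant in neural stem cells.

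The sequences below are of miRNAs described in the text, and not all of their calls stood under every scaling or on a second probe. The first set was higher in OPC and includes the largest difference (miR-652-5p), a passenger arm (miR-138-1-3p), 2 neighbours on chromosome X (miR-503-5p and miR-322-5p), and both members of the miR-106b cluster that passed the rule of size. Mature sequences are from RefSeq (GRCm38.p6) and capitals mark the seed.
miR-652-5p: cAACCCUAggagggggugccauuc
miR-138-1-3p: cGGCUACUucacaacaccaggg
miR-204-5p: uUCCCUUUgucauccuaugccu
miR-27b-3p: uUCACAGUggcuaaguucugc
miR-503-5p: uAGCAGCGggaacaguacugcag
miR-322-5p: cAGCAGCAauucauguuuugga
miR-106b-5p: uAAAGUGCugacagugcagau
miR-25-3p: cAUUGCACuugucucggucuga
miR-301a-3p: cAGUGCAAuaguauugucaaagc

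The second set was lower in OPC. It is shown for its runs of G and C, for miR-9-5p, and for miR-721, which shares its seed with miR-301a-3p of the first set.
miR-2137: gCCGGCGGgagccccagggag
miR-2861: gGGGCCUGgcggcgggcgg
miR-211-3p: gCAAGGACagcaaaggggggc
miR-1224-5p: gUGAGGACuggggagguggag
miR-9-5p: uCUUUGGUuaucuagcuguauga
miR-721: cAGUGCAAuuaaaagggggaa

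For 4 miRNAs that had no RefSeq match, the array's own DNA probe is given. A probe pairs with the 3′ part of its miRNA, and its position is the array design's, on mm9, where the file gives no strand. The probe of miR-487b-3p lies at chr12:110965596-110965613, that of miR-3106-5p at chr8:16168774-16168790, and that of miR-23b-3p at chr13:63401841-63401857. The probe of miR-219-5p has 2 positions in the design, the first at chr17:34161948-34161968.
miR-487b-3p: aagtggatgaccctgtac
miR-3106-5p: tggctgcttctaaatga
miR-23b-3p: ggtaatccctggcaatg
miR-219-5p: agaattgcgtttggacaatca

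The OPC array was the dimmer of the pair. Of 1023 miRNAs, 139 were well above background in OPC and 170 in NSC, 109 of them in both, 30 in OPC only and 61 in NSC only, while 823 were so in neither. The summed signal of the detected miRNAs was 32134 units in OPC and 78035 in NSC, a ratio of 2.43, and no mouse spot was saturated. The median SD over spots was 0.126 (log2) in OPC and 0.114 in NSC. Negative control spots had a median of 2.53 units in OPC and 3.02 in NSC, and 5 of 1000 were well above background on each. Levels were therefore scaled, by a shift of −0.78 (log2, OPC minus NSC), and all differences are OPC minus NSC after that shift unless given as units, which are signals before it. Whether the dimmer OPC array holds less miRNA or was labelled less well cannot be told apart.

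The lines shared their brightest miRNAs. Of the 12 brightest on each array, 10 were the same. The brightest entry on both was miR-1937b_v16.0, at 10230 units in OPC, which was 31.8% of the summed signal, and 33755 in NSC, which was 43.3%. Among the next were miR-720, an entry since recognised as a fragment of a transfer RNA, at 2151 and 5170 units, and miR-2145_v16.0 at 3588 and 4565 units. Among miRNAs of long standing, let-7c-5p had 998 units in OPC and 1272 in NSC, miR-125b-5p 707 and 1334, and miR-21-5p 663 and 841. miR-9-3p and miR-2137 were among the 12 brightest in NSC only, and miR-21-5p and miR-3096-5p in OPC only. Over the 109 miRNAs detected in both, the median difference was −0.05 (quartiles −0.47 and 0.47, SD 0.98), with 53 above 0 and 56 below. The levels correlated across these miRNAs with Pearson's r of 0.87 and Spearman's rho of 0.80, which describes miRNAs that are not independent of each other. The median standard error over spots of a difference was 0.03.

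**Figure D1:**
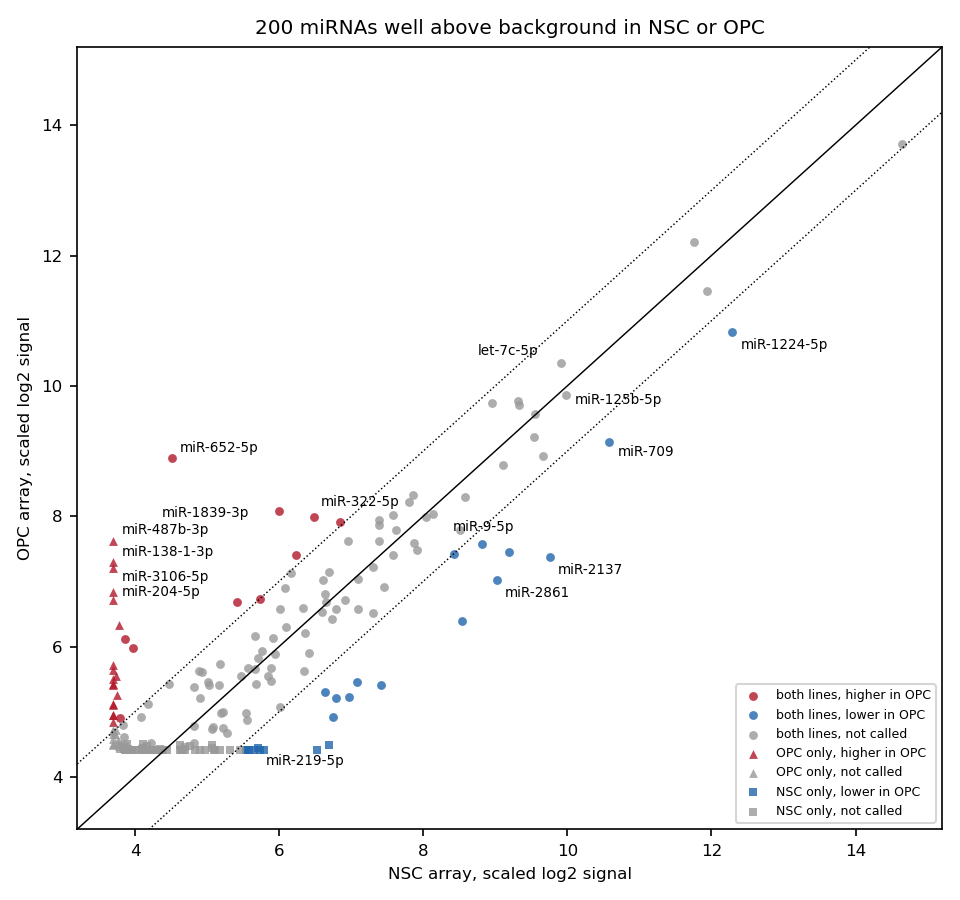
Scaled log2 signal of the 200 miRNAs well above background in at least 1 line, with NSC on the horizontal axis and OPC on the vertical axis. The solid line marks equal levels and the dotted lines a 2-fold difference; miR-652-5p stands highest above the line, while miR-2137 stands furthest below it among miRNAs detected in both lines.

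A miRNA detected in both lines was called higher or lower when its lines stood 2-fold or more apart, and further apart than 2 standard errors over spots. Where only 1 line was well above background, the difference is a lower bound, written "at least", set against the higher of the lowest detected level and the dim probe's own. Of the 200 miRNAs measured in either line, 28 were higher in OPC (14.0%) and 23 were lower (11.5%), together 25.5%. Of the 109 detected in both, 10 were higher (9.17%), 14 were lower (12.8%) and 85 were within the limits. The remaining calls were bounds, 18 higher and 9 lower, and 34 of the 61 miRNAs seen in NSC only had no fold because the bound was under 1. None of the 30 seen in OPC only lacked a fold in this way. After scaling the lowest detected probe lay 0.71 (log2) higher in OPC than in NSC, which widens higher bounds and narrows lower ones. The split into higher and lower calls depends on the scaling. Higher calls made up 54.9% of all calls after the shift and 15.8% (12 higher, 64 lower) with no scaling. They made up 19.4% (14 higher, 58 lower) when the scaling used all mouse probes. Of these 2645 probes only 243 were detected in OPC and 306 in NSC, so the percentile that set the scale fell on undetected probes. Values there were raised to the lowest spot well above background of each array, and the shift was −0.06. That setting is therefore close to no scaling and is not a separate check of it. Under all 6 scalings tried, 12 of the higher and 20 of the lower miRNAs kept their call. Without the shift of −0.78 every difference is lower, so leaving it out can remove higher calls but no lower ones. The 12 and 20 therefore do not compare the directions evenly.

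**Figure D2:**
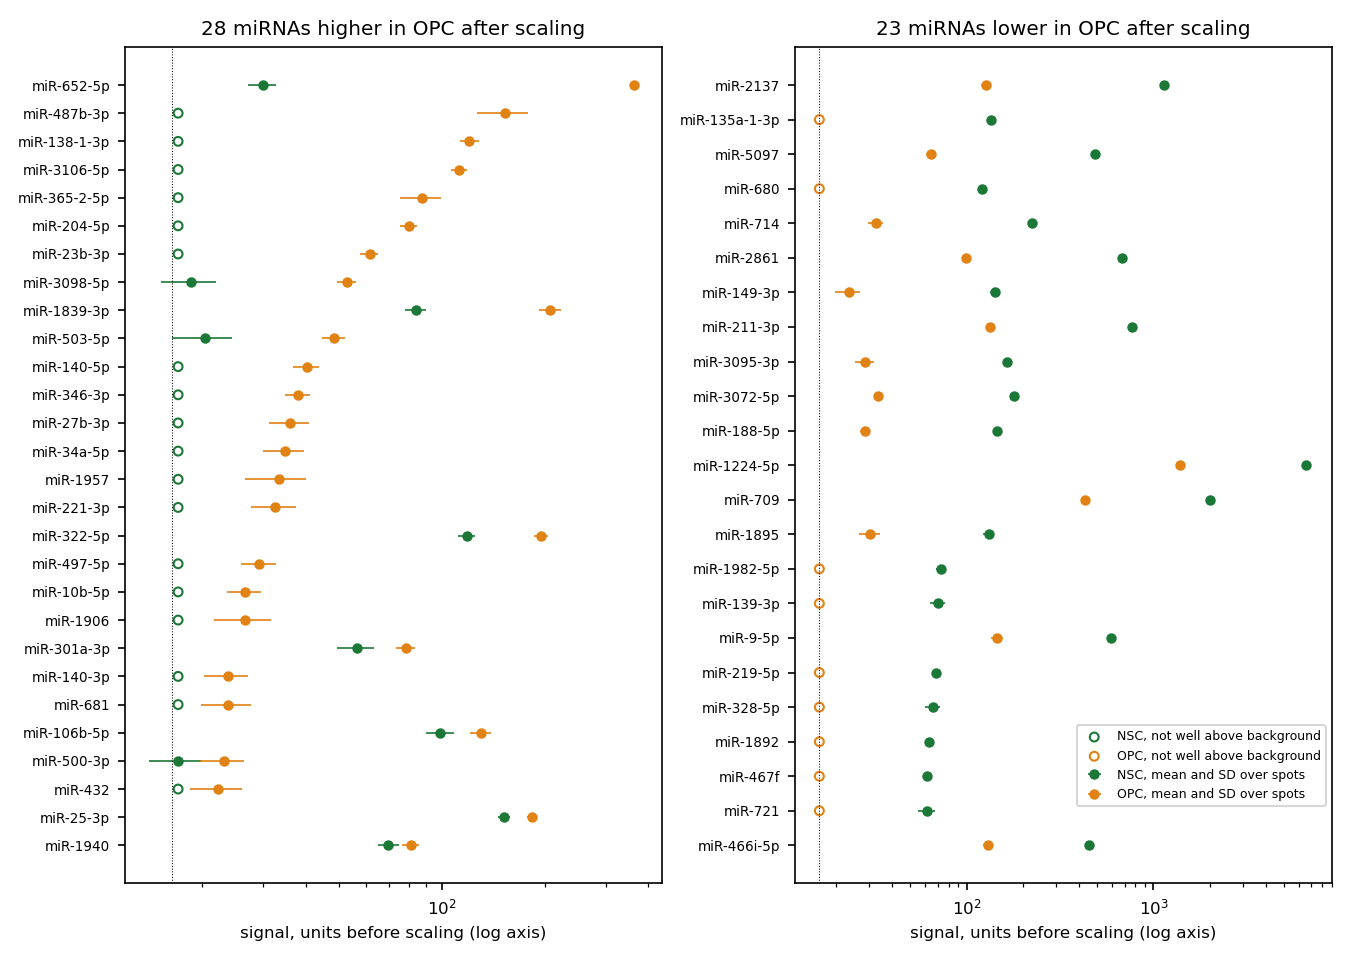
Signal in units before scaling (log axis) of the 28 miRNAs called higher and the 23 called lower in OPC, as mean and SD over the spots of 1 array; open circles are not well above background and are drawn at the lowest detectable spot of that array. The left panel holds 18 miRNAs with an open NSC circle, and the right panel 9 with an open OPC circle.

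The largest differences toward OPC were in miRNAs that NSC barely showed or did not show. miR-487b-3p, a product of the imprinted Dlk1-Dio3 region, had 152 ± 25.5 units in OPC (SD over 20 spots) and 0.22 ± 2.6 in NSC, at least 14.5-fold higher. miR-138-1-3p had 120 ± 7.66 units in OPC and −0.66 ± 3.11 in NSC, at least 11.6-fold higher. miR-3106-5p had 112 ± 5.77 units in OPC and −0.43 ± 2.24 in NSC, at least 10.8-fold higher. In all 3 the NSC signal lay under the median of the negative controls. Their second probes gave bounds of 1.47, 1.37 and 3.45 (log2), beside 3.86, 3.53 and 3.43 on the brightest. miR-365-2-5p had 87.5 ± 11.8 units in OPC and −2.33 ± 2.41 in NSC, at least 8.35-fold higher; its second probe read 15.0 units in OPC, not well above background, so the call stands on 1 probe. miR-204-5p, which lies within Trpm3 and is known for high levels in retinal pigment epithelium and lens, had 80.1 ± 4.64 units in OPC and 5.94 ± 2.32 in NSC, at least 7.70-fold higher. miR-23b-3p had 61.5 ± 3.67 units in OPC and 16.1 ± 3.72 in NSC, at least 5.86-fold higher. These are all of the higher bounds over 5-fold, and all 6 kept their call under the 6 scalings.

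miR-652-5p had the largest difference of all, and its probes disagreed. Its brighter probe read 362 ± 9.44 units in OPC (18 spots) and 30.0 ± 2.78 in NSC, a difference of 4.38 ± 0.03 (standard error over spots), or 20.9-fold. The other probe, 1 base longer, differed by 0.15 only. The other arm, miR-652-3p, had 19.6 units in OPC and 51.1 in NSC, a difference of −0.60. The probes both lie on chromosome X at the position of the miRNA, chrX:139173574-139173586 for the shorter and chrX:139173573-139173586 for the longer, within Tmem164. They are shown because the higher call stands on the first of them alone, and the capital marks the last base of each.
miR-652-5p probe 1: gaatggcaccccC
miR-652-5p probe 2: gaatggcacccccT

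The other higher calls in both lines included 4 over 3-fold in all, miR-652-5p among them. miR-3098-5p had 52.8 ± 3.49 units in OPC and 18.5 ± 3.35 in NSC, a difference of 2.26 ± 0.05 or 4.77-fold. miR-1839-3p had 207 ± 14.8 units in OPC and 83.9 ± 5.89 in NSC, a difference of 2.09 ± 0.04 or 4.26-fold. miR-503-5p had 48.3 ± 3.75 units in OPC and 20.3 ± 4.02 in NSC, a difference of 2.02 ± 0.06 or 4.05-fold. At the other end stood miR-1940, with 81.1 units in OPC and 69.8 in NSC, whose difference of 1.002 lay at the limit of the rule and was 0.30 on its second probe. miR-500-3p, at 23.1 and 17.0 units, was close to background on both arrays.

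The 23 miRNAs lower in OPC were led by entries rich in G and C. miR-2137 had 126 ± 7.44 units in OPC and 1137 ± 20.4 in NSC, a difference of −2.39 ± 0.02 and 5.23-fold lower. miR-2861, known in mouse for promoting osteoblast differentiation, had 98.9 ± 4.30 units in OPC and 683 ± 22.3 in NSC, 4.01-fold lower. miR-5097 had 64.2 ± 3.91 units in OPC and 488 ± 8.87 in NSC, 4.42-fold lower. miR-714 had 32.7 ± 3.03 units in OPC and 225 ± 12.6 in NSC, also 4.01-fold lower. The signals of all 4 were far above background in NSC, and the ranges of 1 SD over spots did not overlap between the arrays. These ranges are before scaling, with OPC the dimmer array, and hold technical spread only, so their distance adds nothing to the calls.

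miR-211-3p, from the melanocyte gene Trpm1, had 133 ± 4.26 units in OPC and 770 ± 18.3 in NSC, 3.36-fold lower. Its 5p arm, the one with a seed like that of miR-204-5p, was well above background in neither line (2.34 and 4.32 units). miR-1224-5p, a mirtron from an intron of Vwa5b2, had 1379 ± 27.3 units in OPC and 6563 ± 120 in NSC, 2.76-fold lower, and its second probe gave −2.38. Under quantile normalization its difference was −0.71 and the call was lost. miR-709 had 432 ± 11.99 units in OPC and 2009 ± 31.9 in NSC, 2.70-fold lower. miR-149-3p had 23.4 ± 3.66 units in OPC and 142 ± 8.57 in NSC, 3.55-fold lower, whereas its other arm miR-149-5p had 28.3 and 39.5 units and a difference of 0.31. miR-149-3p thus stood below NSC while the 5p arm of the same hairpin was within the limits. The other lower calls in both lines were miR-3095-3p at −1.74, miR-3072-5p at −1.63, miR-188-5p at −1.57, miR-1895 at −1.33, miR-9-5p at −1.24 and miR-466i-5p at −1.01.

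Lower bounds ran from 2.08-fold to 4.58-fold. miR-135a-1-3p had 15.3 ± 3.48 units in OPC and 136 ± 5.56 in NSC, at least 4.58-fold lower. miR-680 had 5.10 ± 3.02 units in OPC and 121 ± 2.94 in NSC, at least 4.13-fold lower. The next were miR-1982-5p (7.12 and 72.7 units), miR-139-3p (7.68 and 70.3), miR-219-5p (13.4 and 68.4) and miR-328-5p (5.57 and 66.2). The OPC array has less room for such bounds, because its lowest detected probe lay 0.71 (log2) higher than that of NSC after scaling.

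Of the 19 entries of the oligodendrocyte lineage list 7 were measured, 2 higher and 1 lower, beside 14.0% higher and 11.5% lower over all measured miRNAs. At this size nothing about the list can be read from the counts. The list had a median difference of 0.23 over the 5 that had one, beside 0.0016 over all 166 with a value. With no scaling the counts were equal but the median was −0.56. miR-219-5p, which drives precursors out of division and into maturation, had 13.4 ± 2.70 units in OPC and 68.4 ± 3.38 in NSC, at least 2.33-fold lower. Its second probe gave a bound of −0.67, under the 2-fold limit. miR-338-3p, which acts beside miR-219, had 21.0 units in OPC and 37.5 in NSC, a difference of −0.05. miR-138, known in oligodendrocytes for an early stage of maturation, showed its arms on different arrays: miR-138-5p had 3.68 units in OPC and 27.4 in NSC, where it was detected, while miR-138-1-3p was seen in OPC only. The 5p arm is made from 2 hairpins and gave no fold. miR-23a-3p and miR-23b-3p, known for lowering lamin B1 in oligodendrocytes, had 150 and 61.5 units in OPC against 221 and 16.1 in NSC, and only miR-23b-3p passed.

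Of the neural stem cell and progenitor list 7 miRNAs were measured, 2 higher and 1 lower, again beside 14.0% and 11.5% over all, with a median of −0.13. With no scaling, or with the scaling over all mouse probes that comes close to it, no member was higher and 2 were lower, with medians of −0.92 and −0.85. miR-9-5p, which represses the stem cell factor Tlx in mouse, had 146 ± 10.4 units in OPC and 591 ± 17.6 in NSC, a difference of −1.24 ± 0.02 and 2.36-fold lower. Its second probe gave −1.28, but under quantile normalization the difference was −0.93 and the call was lost. miR-9-3p, the other arm, had 372 units in OPC and 1067 in NSC, a difference of −0.74. After this scaling the 5p arm alone passed. With no scaling both arms passed, at −2.02 and −1.52, and under quantile normalization neither did. miR-125b-5p stood at −0.13. miR-124-3p, a miRNA of neurons, was detected in NSC only (32.5 units against 13.8 in OPC), with a bound of −0.14 after scaling.

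The 2 members higher in OPC were miR-106b-5p and miR-25-3p, whose cluster lies within Mcm7 and is known to promote division of neural progenitors. miR-106b-5p had 130 ± 9.50 units in OPC and 99.0 ± 9.30 in NSC, a difference of 1.18 ± 0.04. miR-25-3p had 183 ± 6.27 units in OPC and 152 ± 6.39 in NSC, a difference of 1.06 ± 0.02. The third product of the cluster, miR-93-5p, had 100 units in OPC and 180 in NSC, a difference of −0.06. Unscaled, neither of the first pair reached 2-fold, with differences of 0.39 and 0.27. Among all 29 entries of the miR-17 to miR-92 clusters and their paralogues, which act in cell division, 9 were measured and these 2 were the only calls, beside 14.0% higher over all measured miRNAs. miR-92a-3p had 337 units in OPC and 724 in NSC (−0.32), miR-19b-3p 147 and 309 (−0.29), and miR-20a-5p 226 and 294 (0.41). With no scaling the list had no higher and 2 lower members.

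The miR-503 and miR-322 cluster on chromosome X, which slows the cell cycle in muscle precursors, had both of its measured members higher. miR-322-5p had 195 ± 9.21 units in OPC and 118 ± 6.55 in NSC, a difference of 1.505 ± 0.03 or 2.84-fold. Its second probe gave 1.62. miR-503-5p stood at 2.02, as above, and its second probe was not detected on either array. With no scaling miR-322-5p was at 0.72 and lost its call, and miR-503-5p, at 1.23, kept it. The related miR-15 and miR-16 family, which holds back cyclins, had 5 measured members and 1 higher, with a median of 0.56 (−0.22 unscaled). Over all measured miRNAs 14.0% were higher, and at these sizes nothing about the cluster or the family can be read from the counts. miR-16-5p had 245 units in OPC and 305 in NSC, a difference of 0.47, and miR-15b-5p 189 and 220, a difference of 0.56. miR-497-5p, the called member, had 29.3 ± 3.43 units in OPC and 15.5 ± 3.32 in NSC, at least 2.80-fold higher. Its second probe was detected in neither line, and with no scaling it was at 0.70 and the family had no call.

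After scaling miR-23b-3p and miR-27b-3p of the b cluster were called higher, while the measured members of the a cluster were within the limits. miR-23b-3p and miR-27b-3p lie together on chromosome 13, and miR-27b-3p had 36.1 ± 4.75 units in OPC and 14.4 ± 3.74 in NSC, at least 3.44-fold higher. With no scaling it was just under the limit, at 0.9993, and lost its call. miR-23a-3p and miR-27a-3p, on chromosome 8, differed by 0.23 and 0.42, and miR-24-3p, which both clusters make, had 91.4 and 89.4 units and a difference of 0.82. Neither b member was called on its second probe, where miR-23b-3p gave a bound of 0.88 and miR-27b-3p was not detected. The probes of the a and b members share most of their bases, and RNA of one binding the probe of the other was not tested.
miR-23a-3p probe: ggaaatccctggcaatgt
miR-23b-3p probe: ggtaatccctggcaatg
miR-27a-3p probe: gcggaacttagccactg
miR-27b-3p probe: gcagaacttagccactg

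In several smaller lists 1 or 2 members passed, most of them near background in NSC. Over all measured miRNAs 14.0% were higher and 11.5% lower, and at these sizes nothing about the lists can be read from the counts. miR-34a-5p, a target of p53, had 34.9 ± 4.83 units in OPC and 10.73 ± 3.35 in NSC, at least 3.33-fold higher, while miR-34b-5p and miR-34c-5p were detected in NSC only, at 18.7 and 21.1 units. miR-221-3p, which lowers the cell cycle inhibitor p27, had 32.7 ± 4.88 units in OPC and 8.75 ± 3.41 in NSC, at least 3.11-fold higher. miR-10b-5p, from the Hoxd cluster, had 26.6 ± 3.01 units in OPC and 2.49 ± 2.70 in NSC, at least 2.54-fold higher, and was the 1 measured entry of 11 in the Hox list. Of the 98 Dlk1-Dio3 entries 3 were measured, and beside miR-487b-3p, miR-432 (22.3 and −1.23 units) was called, while miR-494-3p had 85.9 and 131 units and a difference of 0.17. miR-140-5p and miR-140-3p, arms of a hairpin in Wwp2 known for its part in cartilage, were both seen in OPC only, at 40.4 and 23.7 units, at least 3.87-fold and 2.27-fold higher. They were the only pair of arms called in the same direction, of 160 pairs with an arm measured, and no pair was called in opposite directions. In most pairs 1 arm was detected in neither line and could not be called, and in only 4 were both arms detected in both lines. The absence of opposite calls therefore says little. miR-301a-3p, from the Ska2 gene, had 78.5 ± 5.19 units in OPC and 56.3 ± 6.92 in NSC, a difference of 1.27 ± 0.04, against −0.09 for miR-130a-3p and 0.22 for miR-130b-3p of the same family. With no scaling miR-34a-5p, miR-221-3p, miR-10b-5p, miR-140-3p, miR-432 and miR-301a-3p were under 2-fold, at 0.30 to 0.95, and miR-487b-3p and miR-140-5p kept their call.

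The let-7 family, which holds some of the brightest miRNAs, had no call after scaling. All 9 let-7 and miR-98 members with the let-7 seed, known for promoting differentiation, were detected in both and none was called. Their differences ran from −0.72 for let-7d-5p (168 units in OPC, 479 in NSC) to 0.44 for let-7c-5p. Over the 11 measured entries of the family the median was 0.01, but with no scaling it was −0.83 over the 10 detected in both lines, with 4 lower. let-7 made up 10.2% of the summed signal in OPC and 6.93% in NSC. Other families with no call were miR-29 (median 0.70 over 2), miR-30 (0.51 over 5), miR-26 (0.61 over 2), miR-181 (0.16 over 3), and the group of miR-100, miR-99 and miR-125 (−0.20 over 6). With no scaling their medians were −0.17, −0.28, −0.17, −0.47 and −0.99, with 1 lower miR-30 member and 3 lower in the last group. For miR-29 and miR-181 the unscaled median takes in 1 more member, seen in NSC only. Over members detected in both lines it was −0.08 and −0.63. miR-29a-3p came near the limit, at 107 units in OPC and 94.5 in NSC, a difference of 0.96. miR-210-3p, the miRNA of low oxygen, had 24.4 and 61.2 units and a difference of −0.55, which was −1.34 and a lower call with no scaling. Of 28 neuronal entries 8 were measured and miR-138-1-3p alone was called, higher, beside 14.0% higher over all measured miRNAs. The neuronal list had a median of −0.16. The astrocyte list (5 of 16 measured) and the pluripotency clusters (2 of 24) had no call, and none of the 6 entries of the miR-182 cluster was detected. Of 7 mirtrons, made by splicing, 5 were measured and miR-1224-5p alone was called, lower, beside 11.5% lower over all measured miRNAs. The mirtrons had a median of −0.50. With no scaling 3 were lower and the median was −1.33 over members with a value then, or −1.29 over those detected in both lines.

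**Figure D3:**
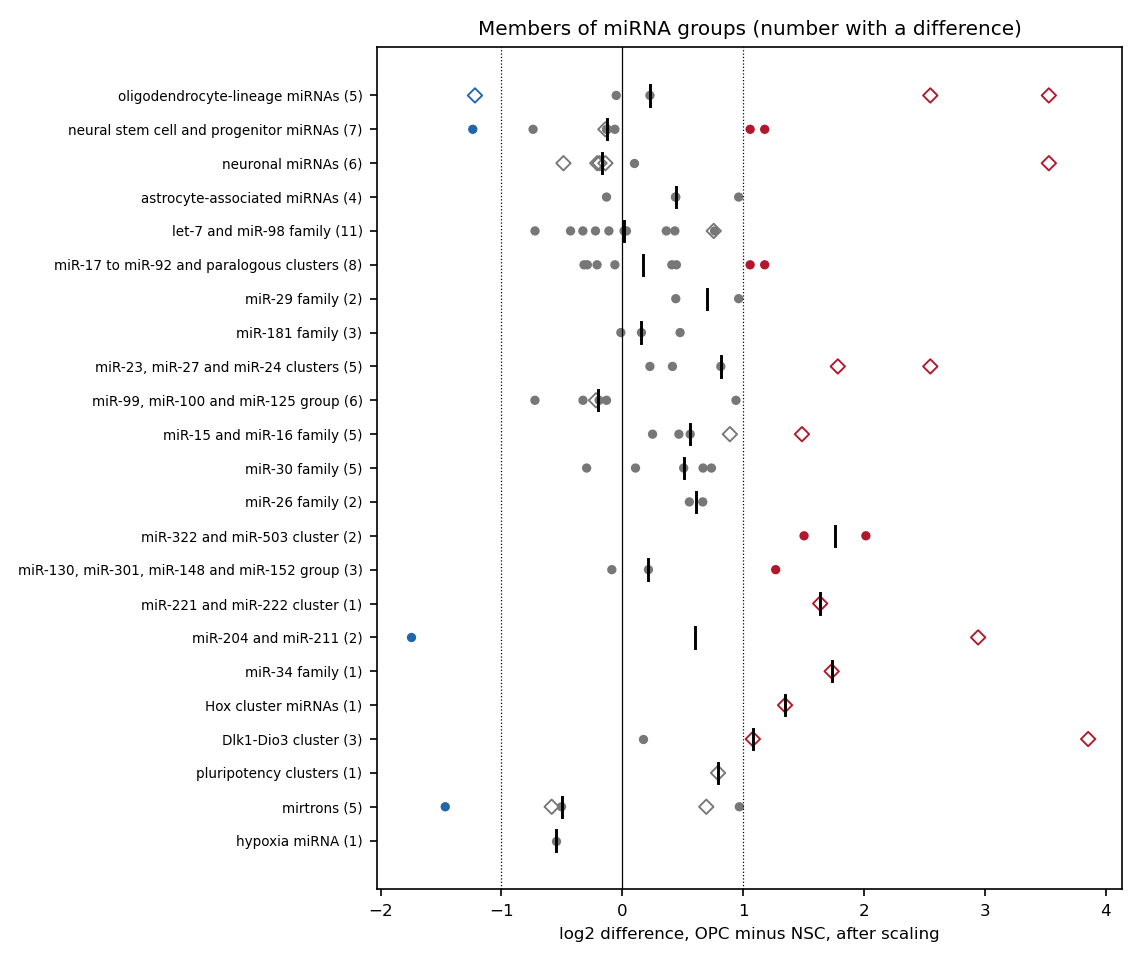
Log2 differences (OPC minus NSC, after scaling) of the members of each miRNA group that have one, with the median as a black bar and dotted lines at 2-fold. Circles are detected in both lines and diamonds are bounds, red is higher and blue is lower; both measured members of the miR-503 and miR-322 cluster lie above 1, and all let-7 entries lie within the dotted lines.

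Groups with a shared seed gave a further view of the families. Of the measured miRNAs 152 matched a RefSeq mature sequence, 37 of the 51 called among them, and 17 seeds were shared by at least 2. In the AGCAGCA group, miR-15a-5p, miR-15b-5p, miR-16-5p and miR-322-5p ran from 0.25 to 1.505, all above 0 after scaling. In the AUUGCAC group miR-25-3p was at 1.06 and miR-92a-3p at −0.32. In the AAAGUGC group 4 members ran from −0.06 to 1.18. The AGUGCAA group was the only one with calls in both directions, miR-301a-3p higher and miR-721 lower. miR-721 had 61.4 ± 6.15 units in NSC and 1.48 ± 1.96 in OPC, at least 2.08-fold lower, and its second probe gave −1.01. miR-721 comes from Cux1 and miR-301a-3p from Ska2.

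By position, 48 measured miRNAs with a single position in the design fell into 22 groups with neighbours less than 10 kb apart on mm9. In 3 of these groups each such member was higher after scaling: miR-23b-3p with miR-27b-3p, the arms of miR-140, and miR-503-5p with miR-322-5p, whose probes span chrX:50407173-50407475. Over all measured miRNAs 14.0% were higher and 11.5% lower. miR-24-3p, which has more than 1 position, was left out, although 1 of them lies beside miR-27b-3p, and it was not called. With no scaling miR-27b-3p, miR-140-3p (0.40) and miR-322-5p were under the limit, so that none of the 3 groups kept all its calls. No group of these held calls in both directions, but most held no call, which left little room for it. Within the gene Clcn5, whose introns carry more than 1 miRNA, miR-188-5p was 2.96-fold lower (28.4 and 145 units) and miR-500-3p was 2.17-fold higher (23.1 and 17.0 units). miR-500-3p was close to background on both arrays, and with no scaling it was at 0.33 and lost its call. The probes of miR-188-5p and miR-500-3p lie just over the 10 kb limit from each other.

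The probes of 1 miRNA, which differ by single bases in length, served as a check within the arrays. For 80 miRNAs the brightest and second-brightest probes were both detected on both arrays. Their differences were 0.08 apart in the median, 73 of the 80 pairs agreed within 0.5, and miR-652-5p was the only pair more than 1 apart, by 4.24. Further probes of a miRNA were outside this check. A 12-base probe of miR-714, detected on both arrays, gave 1.06, against −2.00 on its brightest probe. Of the 28 higher calls, 13 were also made on the second probe, 5 were measured there but not called, and 10 had a second probe well above background in neither line. Of the 23 lower calls these counts were 17, 4 and 2. The calls that stood on the second probe and under all 6 scalings were 6 higher and 15 lower, miR-714 among the lower. Here too, leaving out the shift can remove only higher calls. The 6 were miR-138-1-3p, miR-140-5p, miR-1839-3p, miR-3098-5p, miR-3106-5p and miR-487b-3p. Of the calls described above, miR-652-5p and miR-1940 were lost on the second probe, as were miR-204-5p, miR-221-3p, miR-23b-3p and miR-219-5p, with bounds of 0.97, 0.91, 0.88 and −0.67, and miR-466i-5p at −0.92. The second probe was detected in neither line for miR-365-2-5p, miR-27b-3p, miR-503-5p, miR-497-5p, miR-34a-5p, miR-10b-5p, miR-140-3p, miR-500-3p, miR-149-3p and miR-139-3p.

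**Figure D4:**
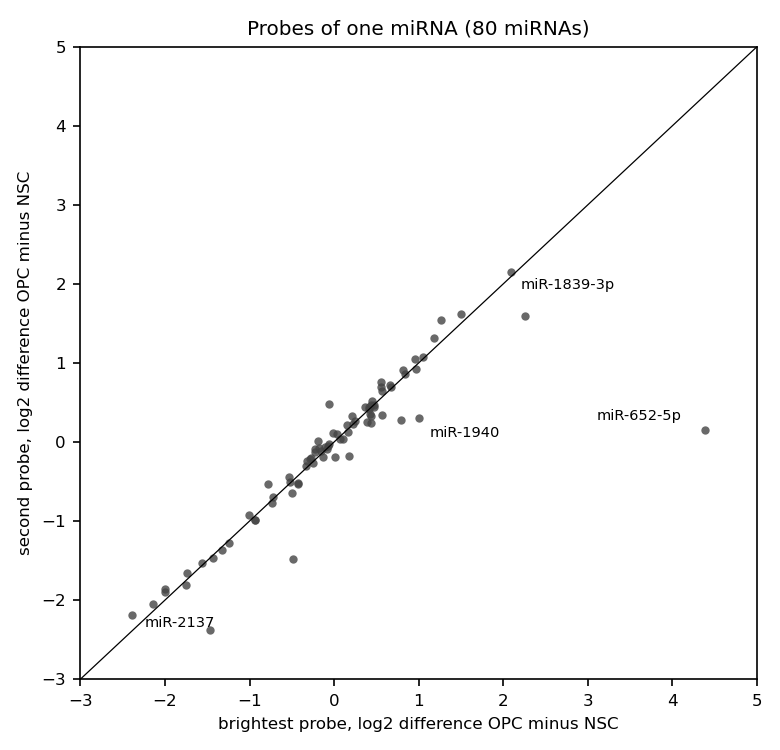
Log2 difference (OPC minus NSC) of the second probe against that of the brightest probe, for the 80 miRNAs with 2 probes detected on both arrays, with the line of equality. The points follow the line, and miR-652-5p lies far from it at 4.38 and 0.15.

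Base composition of the probe moved with the direction of the calls. The brightest probes of the 23 lower miRNAs had a median of 69.2% G and C and a median length of 13 bases, and 17 were over 60%. In the 28 higher miRNAs the median was 52.9% and the length 17, as over all 200, and 6 were over 60%. Over all 200 measured miRNAs 71 were over 60%, and 48 of the 149 not called were. Among the 109 miRNAs detected in both lines, the median difference was 0.01 for the 31 probes under 45%, 0.17 for the 39 between 45% and 60%, and −0.48 for the 39 at 60% or more, which held 11 of the 14 lower calls. Across these miRNAs Spearman's rho between G and C content and difference was −0.20 and Pearson's r −0.27, a description of probes that share 2 arrays. miR-9-5p, miR-3095-3p and miR-466i-5p were the lower calls in both lines with probes under 60%. The part of base composition in the lower calls was not tested.

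**Figure D5:**
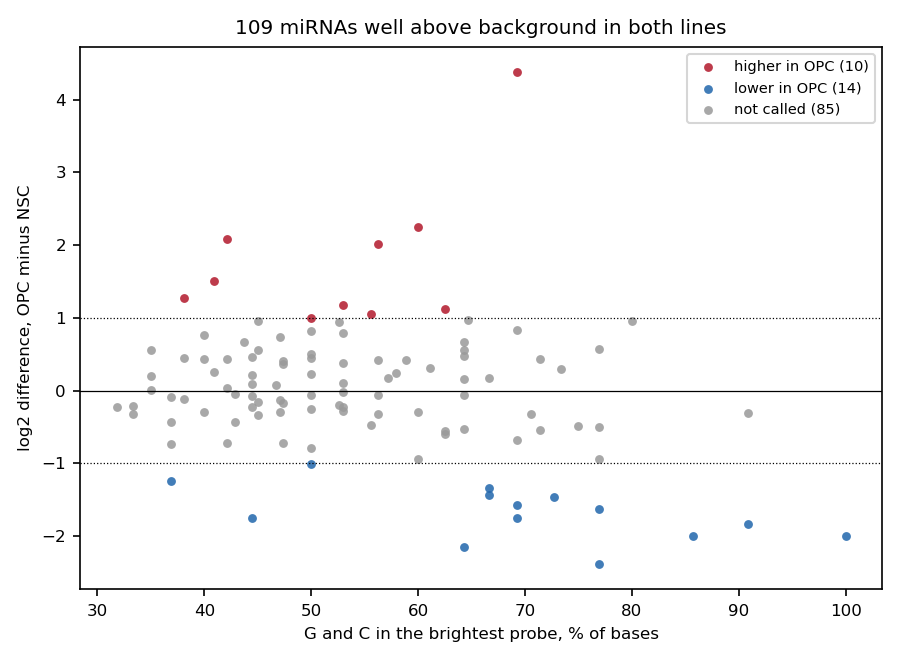
Log2 difference (OPC minus NSC) against the share of G and C in the brightest probe, for the 109 miRNAs detected in both lines. Of the 14 lower miRNAs 11 lie at 60% or more, while the 10 higher ones spread from 38.1% to 69.2%.

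The array measures no messenger RNA, so that the labels could be set only against miRNAs of other cell types. Nothing was measured of the markers of endothelial cells (2 entries), muscle (15), epithelium (14) and hepatocytes (2), and their highest signal on either array was 10.3 units. Of 13 entries of blood cells and microglia, miR-150-3p was seen in OPC (20.2 units) and miR-155-5p in NSC (18.7), with summed signals of 49.4 units in OPC and 39.5 in NSC. Of 9 entries of fibroblasts, pericytes and smooth muscle, miR-199a-3p was seen in OPC at 18.7 units, with sums of 28.8 and 9.42. Of 5 entries of endocrine cells, miR-7a-5p was seen in NSC at 18.2 units. Of 12 entries of mature neurons 5 were measured, 4 of them in NSC only, with sums of 90.3 units in OPC and 213 in NSC. These sums are before scaling, after which the median difference of this list was −0.16 over the 4 members with a value. No marker of these 8 lists was called after this scaling. With no scaling 1 entry of mature neurons was lower, and with the total signal per miRNA 2 were. The total signal also gave 1 higher entry of blood cells and microglia and 1 of fibroblasts, pericytes and smooth muscle. So did a fold of 1.5, and detection by any spot well above background.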

How the data were processed

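Total RNA of mouse cell lines was measured on 1-colour Agilent miRNA arrays, 1 per line. Scans were quantified by Agilent Feature Extraction (version 10.7.3.1), according to the submitters' processing notes. Background subtraction and spatial detrending had been applied to the deposited signal intensity of each spot, but no scaling between arrays, and the design uses mm9 positions, per the file headers. The series table held the same intensity values (largest difference 0). The authors' files also flag each spot (score 0 or 1) as outlying, as saturated and as well above background, and hold a total signal for each miRNA, used here as an alternative. The arrays give intensities and not counts, and their number limits the precision. Both arrays lay on the same slide and in the same scan, per the file headers.

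Outlier spots were left out (1842 in OPC and 2005 in NSC, of 40920 spots for 2645 mouse probes). Values under the lowest spot well above background (16.3 units in OPC, 17.0 in NSC) were raised to that value before log2, and spots were averaged. The scaling set the 75th percentile of the 182 probes detected on all 4 arrays equal. A probe was detected if at least 50% of its spots were well above background, a miRNA if any probe was, and its level was that of its brightest probe. Calls followed the rule of size given above, with no test. The rule was tested on data simulated from the probe means of the NSC array with spot noise, which hold no spread between cultures. Alternatives covered scaling, background correction (normexp of limma 3.58.1 in R 4.3.3, with an offset of 50 units), probe choice, outlier spots, fold and detection. Python 3.11.15, numpy 2.4.6 and pandas 2.3.3 were used.

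The members, the 24 miRNA groups and the 8 marker lists were chosen with earlier results of these data known. Named miRNAs were, by rule, the 12 largest differences per direction and the 6 largest bounds, the 12 brightest of each array, each list's brightest 2, largest 2 and called members, their other arms and members with the same seed. Named outside it, after their values were seen, are miR-466i-5p, the arms of miR-140, miR-211-5p, miR-24-3p, miR-19b-3p, miR-338-3p and miR-124-3p. The text gives values for part of these only. Names follow the array's design, genes that hold a miRNA are from RefSeq (GRCm38), and sequence of miR-5097 is not reported here.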

Additional observations from a re-analysis of the deposited data

Results flagged for a closer look

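Probes for viral miRNAs, which no comparison used, gave signal on both arrays. In NSC, 8 of the 135 viral probes were well above background, for 4 of 57 viral miRNAs, at 20.4 to 66.0 units. In OPC 7 were, for 3 viral miRNAs, at 16.3 to 102 units. On both arrays 5 of the 1000 negative control spots were well above background.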

How the results depend on the processing

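No paired analysis was possible because each line has 1 array and the labels give no replicate numbers. Against 28 higher and 23 lower miRNAs, the counts were 12 and 64 with no scaling, 14 and 58 with scaling over all mouse probes, 10 and 9 with normexp background correction, 51 and 37 at a fold of 1.5, and 16 and 10 at a fold of 3. The second-brightest probe, an alternative chosen after seeing the data, gave 14 higher and 18 lower. Lower miRNAs numbered 39 with the total signal per miRNA and 15 when all spots of a probe had to be well above background. The median difference over miRNAs detected in both lines, −0.050, became −0.83 with no scaling, −0.77 when all mouse probes set the scale, 0.13 after quantile normalization, 0.18 with normexp, and 0.17 or 0.25 when all or any spots had to be well above background. Scaling over all mouse probes, most of them undetected, shifted the arrays by −0.06 only, so it is close to no scaling. The cause of the moves in counts and medians was not tested, beyond the settings' own construction. Counts moved by less than 1.5 times under the other settings tried. Detected miRNAs ranged from 116 to 177 in OPC and from 146 to 209 in NSC with the share of spots required. Of the 51 calls normexp kept 18. Its offset of 50 units, added to every spot, narrows the folds of dim miRNAs by construction. Signals near the lowest detected spot, 16.3 units in OPC and 17.0 in NSC, limit the bounds and the calls of dim miRNAs, and 1 array per line leaves the spread between cultures unmeasured.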
